A study of Homo sapiens with 12 samples.

Results

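The genes described here are 10 inhibitors, upstream regulators and core components of the mTOR complexes: DEPTOR, TSC1, TSC2, MTOR, RPTOR, RICTOR, MLST8, AKT1S1, DDIT4 and RHEB. They were taken by gene symbol from the annotation of an Illumina BeadChip array, on which 15 probes carry these names, out of 20046 named genes and 30113 probes with 1 gene name. DEPTOR and TSC1 had been picked because both were lower in cells with a miR-130b mimic, so their differences in that comparison, and those of the other members, are given as a description with no test. Probes with a detection p-value below 0.05 in 4 or more of 12 arrays were kept; 13 of the 15 probes passed, standing for 9 of the 10 genes. The only RICTOR probe was detected on 0 of 12 arrays, with detection p-values from 0.160 to 0.483, and has no comparison here.

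Total RNA was measured in TC71, an established Ewing sarcoma cell line, 48 h into each condition. The 3 groups of 4 arrays were cells with a scramble control, cells with a miR-130b mimic, and cells with an anti-miR against miR-130b. The labels give no other treatment and no genotype beyond the line, so all 12 arrays share the TC71 background. They do not explain the code of the anti-miR columns, do not say which arm of the miR-130b hairpin the mimic carries, and leave unsaid whether replicate arrays came from separate cultures.

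mTOR is a kinase that works in a pair of complexes. mTORC1 contains RPTOR and drives protein synthesis when amino acids and growth factors are present, while mTORC2 contains RICTOR and phosphorylates AKT and SGK1. RHEB, a small GTPase, switches mTORC1 on at the lysosome, and the TSC1 and TSC2 complex switches RHEB off. DEPTOR binds mTOR in both complexes and inhibits it. A microRNA lowers transcripts that pair with its seed, bases 2 to 8 counted from its 5′ end, and miR-130b belongs to a family that shares 1 seed.

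The mature sequences of the tested microRNA and of 3 relatives are shown because the seed is what links the mimic to possible target transcripts. They come from RefSeq with GRCh38.p14 coordinates, and capitals mark bases 2 to 8.
hsa-miR-130b-3p: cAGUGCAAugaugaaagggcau
hsa-miR-130b-5p: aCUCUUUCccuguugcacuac
hsa-miR-301a-3p: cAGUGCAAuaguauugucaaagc
hsa-miR-301b-3p: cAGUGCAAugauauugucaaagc
hsa-miR-454-3p: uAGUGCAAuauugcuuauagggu
Both arms of miR-130b lie on the plus strand of chromosome 22, the 3p arm at chr22:21653354-21653375 and the 5p arm at chr22:21653316-21653336. miR-301b-3p lies on the same strand at chr22:21653025-21653047. miR-301a-3p at chr17:59151149-59151171 and miR-454-3p at chr17:59137787-59137809 lie on the minus strand. Of 2370 mature human microRNA names in that table, 6 carry the seed AGUGCAA, and the 5p arm of miR-130b does not. A transcript site that pairs with this seed reads UUGCACU; the 3′ untranslated regions of the members were not analysed here, so none is called a target. The array has 1 probe for the miR-130b gene itself, and it was detected on 0 of 12 arrays, so these data hold no check of the mimic or the anti-miR on miR-130b.

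The median raw intensity per array ran from 85.5 to 88.8 in scramble, from 84.5 to 87.6 with the mimic and from 72 to 82.5 with the anti-miR. Between 19008 and 20544 of 47322 probes were detected per array, and arrays of 1 group correlated at 0.989 to 0.994. All 9 Ewing sarcoma markers on the array were detected; CCND1 and HOXD13 rose with the mimic, and the summed normalized intensity of the 9 was 29530 to 31480 in scramble, 33180 to 35910 with the mimic and 28560 to 32560 with the anti-miR. Of markers of other cell types, 0 of 5 endothelial genes were detected on any array, and neither were PDGFRA, CDH1, KRT19, CLDN4, PTPRC, CD3E or HBB. Among the 7 fibroblast markers that could be tested, COL1A1 and THY1 rose and FAP fell with the mimic, while their summed intensity was 2186 to 2542 in scramble, 2089 to 2684 with the mimic and 2010 to 2492 with the anti-miR. KRT8, 1 of 2 epithelial markers tested, rose, and the summed intensity of these was 94.08 to 106.1 in scramble, 112.8 to 165.4 with the mimic and 81.13 to 117.6 with the anti-miR. Of 2 blood cell markers tested, 0 passed limma's test with the mimic and 1 had an unadjusted p under 0.05, beside 3829 of all 11835 genes. The summed intensity of these 2 was 95.57 to 114.6 in scramble, 112.8 to 159 with the mimic and 107.1 to 138.8 with the anti-miR. The part of these shifts in the results below was not tested. In bulk RNA, fewer cells of a type and less RNA per cell cannot be told apart.

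DEPTOR and TSC1 are the 2 of 9 compared members that belong to the genes called between mimic and scramble (adjusted p under 0.05), both lower, which the choice of members fixed and which is no test of them. Of all 11835 genes, 16.2% were called and 8.77% were called as lower. The same 2 members were the ones whose mimic and scramble arrays did not overlap, which held for 21% of all genes, and for 10.6% with the mimic lower. The rule picked these genes from this contrast, so nothing is read from the counts. As a description, 5 of the 9 members were higher with the mimic, MTOR by 0.00 among them, and 4 were lower. Their median log2 difference was 0.00 beside -0.00 over all genes. Normalization moves the balance of the background: 45.9% of the called genes were higher after quantile normalization and 34.6% after median scaling.

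**Figure D1:**
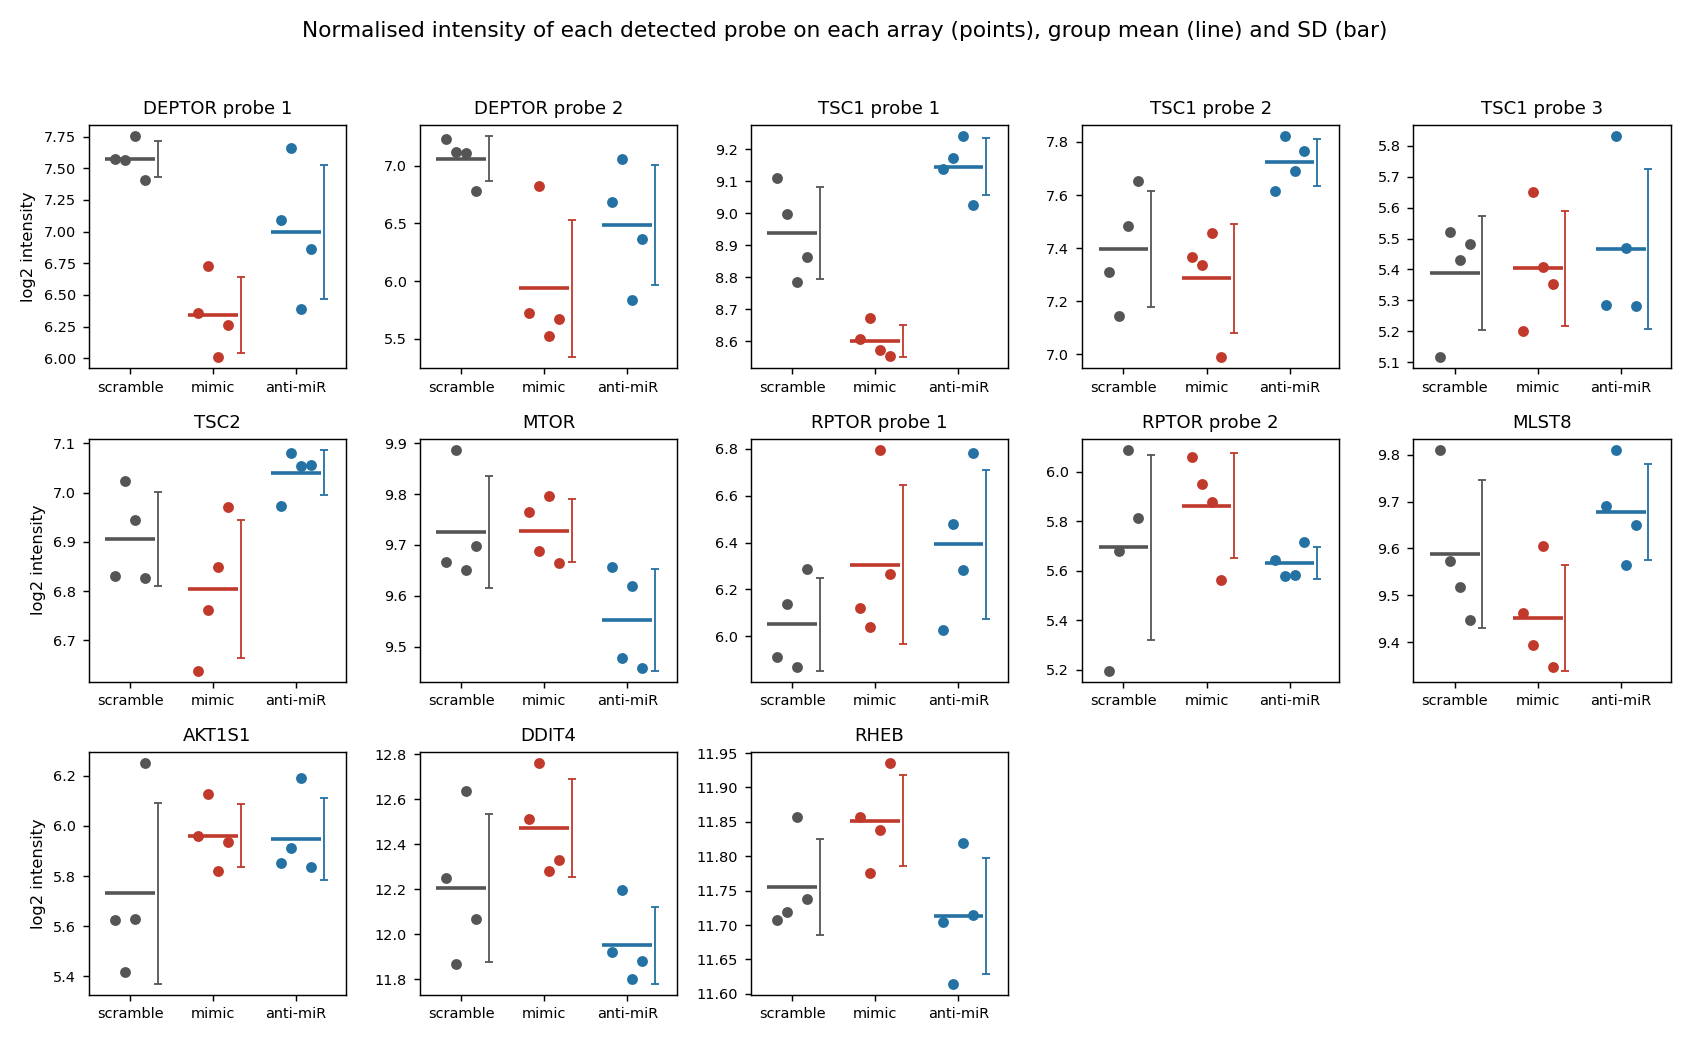
Normalized log2 intensity of each kept probe of the 9 members, 1 point per array, with group means and SD, for scramble, mimic and anti-miR (4 arrays each). The brighter DEPTOR probe stands at 7.41 to 7.75 in scramble and at 6.01 to 6.73 with the mimic. The brightest TSC1 probe stands at 8.79 to 9.11 in scramble and at 8.55 to 8.67 with the mimic.

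DEPTOR, the inhibitory subunit found in both mTOR complexes, showed the widest gap of any member. Its brighter probe gave raw intensities of 299.1, 256.6, 278.2 and 227.7 on the 4 scramble arrays. With the mimic they were 138.6, 169.5, 119.4 and 131.4, and with the anti-miR 183.2, 253.1, 125.2 and 150.2. Every mimic array lay below every scramble array, and the anti-miR arrays spread over both ranges. After background correction and quantile normalization the log2 values were 7.58, 7.57, 7.75 and 7.41 in scramble and 6.36, 6.73, 6.01 and 6.27 with the mimic. The group means were 7.58 ± 0.14 (SD, n = 4) and 6.34 ± 0.30 (SD, n = 4). Their log2 difference was -1.24 ± 0.21 (SE), which is 2.35-fold lower with the mimic.

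The second DEPTOR probe moved in the same direction. Its scramble values were 7.23, 7.12, 7.11 and 6.78 on the log2 scale, and its mimic values were 5.73, 6.82, 5.53 and 5.67. Mimic array 2 alone reached into the scramble range on this probe, and it was also the highest of the mimic arrays on the brighter probe. The log2 difference was -1.12 ± 0.27 (SE), and -0.67 with no background correction. On mimic arrays 1, 3 and 4 this probe lay near background. Its raw intensities there were 109.8, 102.5 and 106.8, with detection p-values of 0.00519, 0.0182 and 0.0039, which limits the precision of the difference. Over the 12 arrays the log2 values of both probes correlated at r = 0.949, and at 0.898 with each group's mean removed, as a description of probes read from the same RNA.

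The anti-miR did not bring DEPTOR above scramble. On the log2 scale the brighter probe read 7.09, 7.66, 6.39 and 6.87 with the anti-miR, a mean of 7.0 ± 0.53 (SD, n = 4). Anti-miR array 2 lay within the scramble range and the other 3 lay below it. The log2 difference from scramble was -0.58 ± 0.21 (SE), with a 95% interval from -1.03 to -0.12 before adjustment and an adjusted p of 0.210 (limma, Benjamini-Hochberg over 11835 genes), so it did not pass the test. The same probe had a log2 difference of -0.66 ± 0.21 (SE) between mimic and anti-miR, and those groups overlapped. The mimic and anti-miR comparisons use the same 4 scramble arrays, so the values stand side by side and are not independent of each other. The second probe gave -0.57 ± 0.27 (SE) between anti-miR and scramble, with an adjusted p of 0.333.

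The lowest DEPTOR values in the anti-miR group were on arrays 3 and 4. These also had the lowest median raw intensities of all arrays, 76.3 and 72 beside 81.5 and 82.5 for arrays 1 and 2. A link between intensity and the DEPTOR values was not tested. With anti-miR array 3 left out, the log2 difference from scramble was -0.37, with an adjusted p of 0.452. With arrays 3 and 4 both left out, a choice made after seeing the data, it was -0.20 with an adjusted p of 0.817. Leaving out the lowest arrays of the group had to shrink the difference, so nothing is read from this.

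AKT1S1, also called PRAS40, is an inhibitor of mTORC1 that binds RPTOR. Its log2 values were 5.63, 5.42, 5.63 and 6.25 in scramble, 5.96, 6.13, 5.82 and 5.93 with the mimic, and 5.85, 5.91, 6.19 and 5.84 with the anti-miR. Scramble array 4 was the highest of all 12, and the 3 groups overlapped. The log2 difference was 0.23 ± 0.15 (SE) for the mimic and 0.22 ± 0.15 (SE) for the anti-miR, the latter with an adjusted p of 0.480.

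TSC1, which stabilises TSC2, had 3 kept probes that did not behave alike. The brightest gave raw intensities of 754.6, 586, 508.1 and 515.8 in scramble. With the mimic it gave 444.4, 493.5, 433.2 and 423.7, and with the anti-miR 579.7, 616.6, 588.2 and 504.1. The mimic arrays were the lowest 4 of the 12. On the log2 scale the scramble values were 9.11, 9.0, 8.79 and 8.86 and the mimic values 8.61, 8.67, 8.57 and 8.55. The means were 8.94 ± 0.14 (SD, n = 4) and 8.60 ± 0.05 (SD, n = 4), a log2 difference of -0.34 ± 0.09 (SE) or 1.26-fold lower with the mimic. This change is much smaller than that of DEPTOR, and the 4 mimic arrays were close to each other.

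The second TSC1 probe read 7.31, 7.15, 7.48 and 7.65 in scramble and 7.37, 7.34, 7.46 and 6.99 with the mimic. These groups overlapped, and the log2 difference was -0.11 ± 0.12 (SE). The third probe, detected on 11 of 12 arrays, gave 0.02 ± 0.14 (SE). The lower TSC1 level with the mimic therefore rests on the brightest probe: with the mean of the 3 probes in its place the log2 difference was -0.14. The first and second probe correlated at r = 0.574 over the 12 arrays but at -0.323 with group means removed.

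With the anti-miR, TSC1 stood on the other side of scramble, although not past the test. The brightest probe read 9.14, 9.17, 9.24 and 9.03, a mean of 9.15 ± 0.09 (SD, n = 4) on the log2 scale. Of these, 3 arrays lay above every scramble array and array 4 lay within the scramble range. The log2 difference from scramble was 0.21 ± 0.09 (SE), with a 95% interval from 0.02 to 0.39 before adjustment and an adjusted p of 0.263 (limma). The second probe gave 0.33 ± 0.12 (SE), with an adjusted p of 0.243. The third gave 0.08 ± 0.14 (SE), with an adjusted p of 0.815. Between mimic and anti-miR the groups did not overlap on the first and second probe, with log2 differences of -0.54 ± 0.09 (SE) and -0.44 ± 0.12 (SE). On the third probe these groups overlapped, with a log2 difference of -0.06 ± 0.14 (SE). By their brightest probes, 4 of 9 members did not overlap between mimic and anti-miR, TSC1, TSC2, MTOR and DDIT4, beside 20% of all genes. These groups share the mimic arrays with the comparison that chose the members, so the count is a description.

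TSC2, the partner that carries the GTPase-activating activity towards RHEB, had 1 kept probe; its other probe was detected on 1 array. The log2 values were 6.83, 7.02, 6.94 and 6.83 in scramble, 6.64, 6.76, 6.85 and 6.97 with the mimic, and 6.97, 7.08, 7.05 and 7.06 with the anti-miR. Scramble overlapped both other groups. The log2 difference was -0.10 ± 0.09 (SE) for the mimic and 0.13 ± 0.09 (SE) for the anti-miR, with an adjusted p of 0.450 for the latter. Between mimic and anti-miR the TSC2 log2 difference was -0.24.

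RHEB, the GTPase that TSC2 acts on, was at 11.76 ± 0.07 (SD, n = 4) in scramble, 11.85 ± 0.07 with the mimic and 11.71 ± 0.08 with the anti-miR on the log2 scale. All 3 groups overlapped. Its log2 difference was 0.10 ± 0.08 (SE) for the mimic and -0.04 ± 0.08 (SE) for the anti-miR, the latter with an adjusted p of 0.817.

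DDIT4, also called REDD1, is induced by stress and acts through the TSC complex to lower mTORC1 activity. Its log2 values were 12.25, 11.87, 12.64 and 12.07 in scramble, 12.51, 12.76, 12.28 and 12.33 with the mimic, and 11.92, 12.19, 11.80 and 11.88 with the anti-miR. The scramble arrays spanned most of the range of both other groups, while every mimic array lay above every anti-miR array. The log2 difference from scramble was 0.27 ± 0.15 (SE) for the mimic and -0.26 ± 0.15 (SE) for the anti-miR, the latter with an adjusted p of 0.412. Between mimic and anti-miR it was 0.52 ± 0.15 (SE).

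MTOR, the kinase itself, was level between scramble and mimic. Its log2 values were 9.67, 9.89, 9.65 and 9.70 in scramble, 9.76, 9.69, 9.80 and 9.66 with the mimic, and 9.66, 9.48, 9.62 and 9.46 with the anti-miR. The log2 difference was 0.00 ± 0.08 (SE) for the mimic, with a 95% interval from -0.18 to 0.18. For the anti-miR it was -0.17 ± 0.08 (SE), with a 95% interval from -0.35 to 0.01 and an adjusted p of 0.321, and array 1 lay within the scramble range. Between mimic and anti-miR the MTOR log2 difference was 0.18 ± 0.08 (SE).

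MLST8, a subunit of both complexes that binds the kinase domain, was at 9.59 ± 0.16 (SD, n = 4) in scramble, 9.45 ± 0.11 with the mimic and 9.68 ± 0.10 with the anti-miR. The log2 difference was -0.13 ± 0.10 (SE) for the mimic and 0.09 ± 0.10 (SE) for the anti-miR, the latter with an adjusted p of 0.665. RPTOR, which brings substrates to mTORC1, had a pair of dim probes that did not follow each other over the 12 arrays (r = 0.0140). The brighter one gave a log2 difference of 0.25 ± 0.18 (SE) for the mimic and 0.34 ± 0.18 (SE) for the anti-miR, with an adjusted p of 0.346 for the latter. The other RPTOR probe gave 0.17 for the mimic and -0.06 for the anti-miR, so the probes shared their direction for the mimic and not for the anti-miR.

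**Figure D2:**
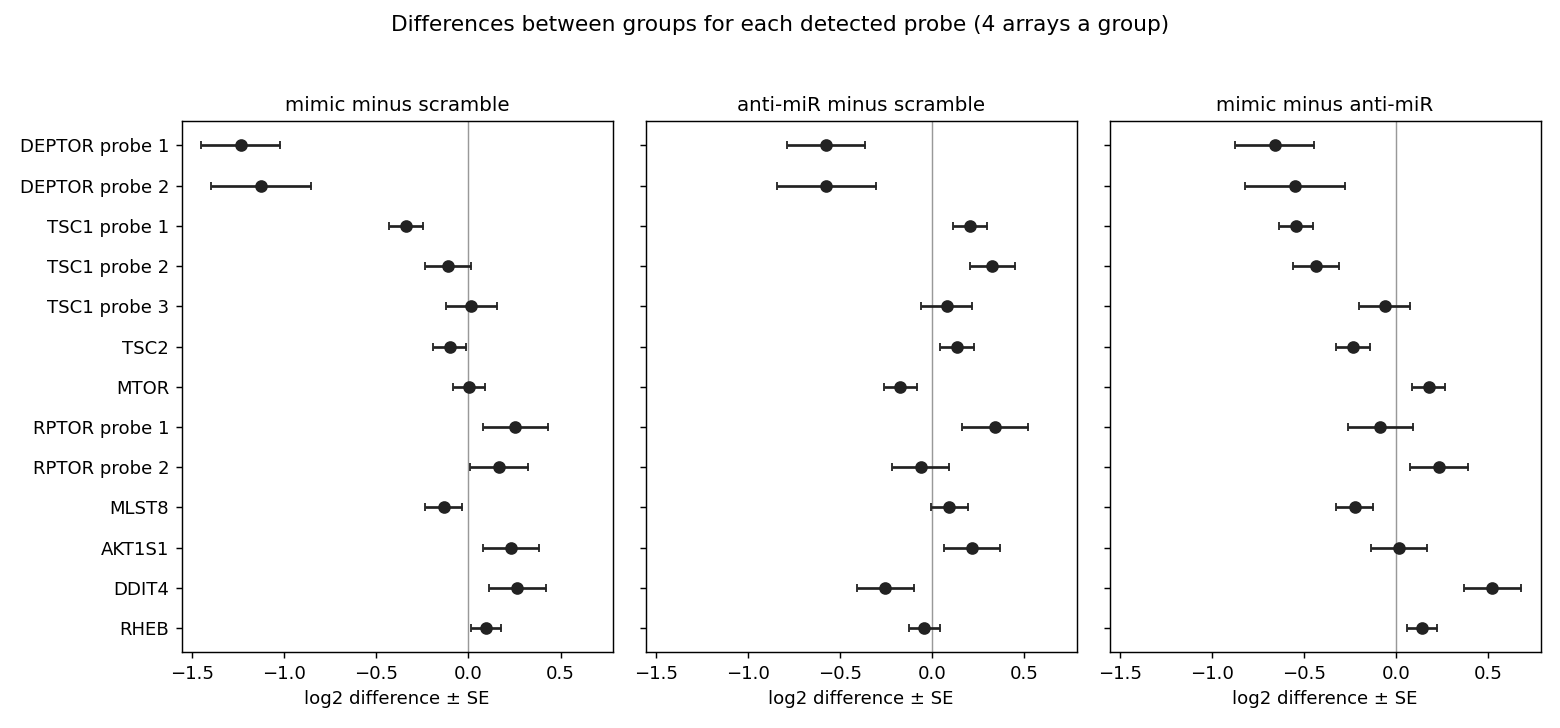
Log2 difference (x axis) of each kept probe of the members for the mimic against scramble, the anti-miR against scramble and the mimic against the anti-miR. Bars show the SE and are not 95% intervals. The brighter DEPTOR probe lies furthest from 0, at -1.24 for the mimic and -0.58 for the anti-miR. The brightest TSC1 probe lies at -0.34 and 0.21.

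In the anti-miR comparison, 0 of 9 members passed limma's test at an adjusted p of 0.05, beside 0.127% of all genes. The choice of members did not use the anti-miR arrays, but it did use the 4 scramble arrays of this comparison. It is therefore no independent test of DEPTOR and TSC1. At an unadjusted p under 0.05 there were 2 members, DEPTOR and TSC1, beside 16.5% of all genes. No member's anti-miR and scramble arrays were free of overlap, beside 8.94% of all genes. The median log2 difference of the 9 members was 0.09 and that of all genes -0.02, with 5 members higher and 4 lower. The 95% intervals of TSC2, MTOR, MLST8, RPTOR, AKT1S1, DDIT4 and RHEB all include 0, from which it does not follow that these genes were equal in both groups.

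**Figure D3:**
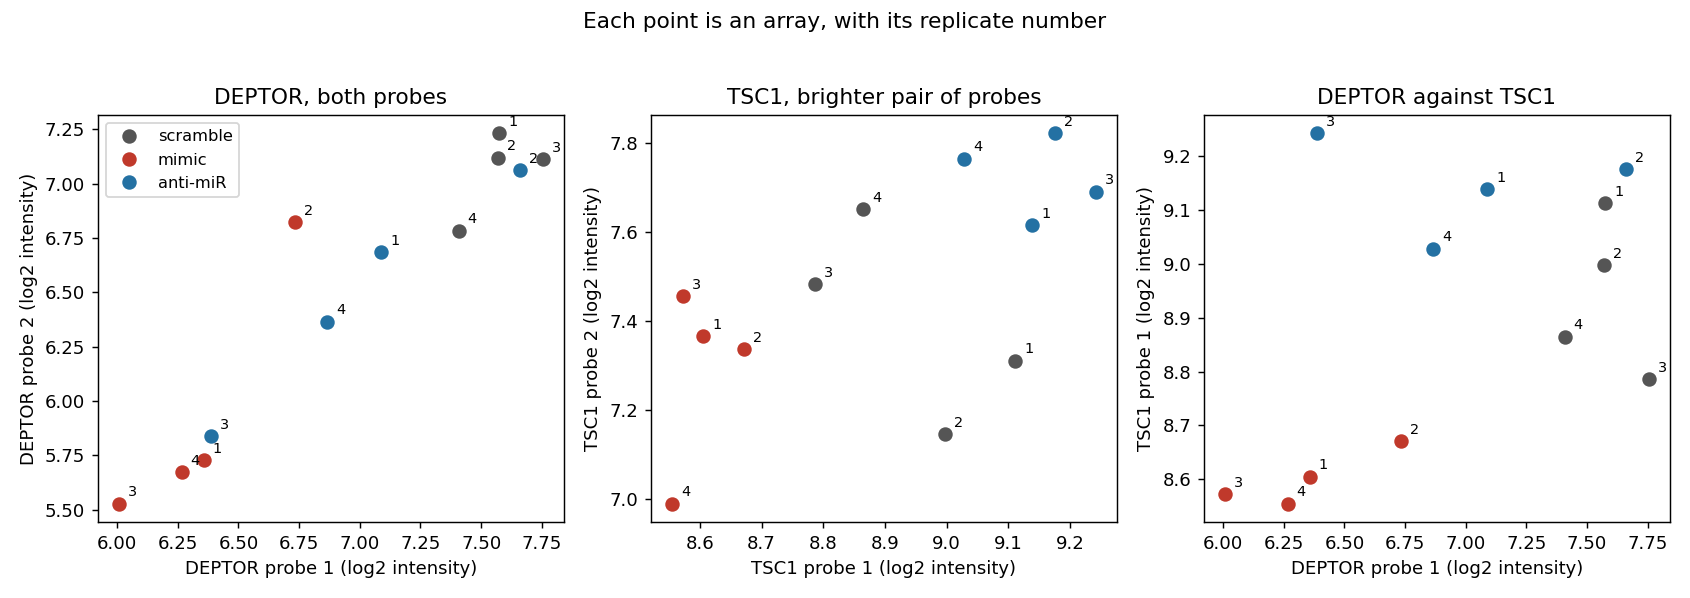
Normalized log2 intensity of the brighter against the second probe of DEPTOR and of TSC1, 1 point per array, coloured by group. A further panel sets the brightest DEPTOR probe against the brightest TSC1 probe. The DEPTOR probes follow each other (r = 0.949 over 12 arrays), the TSC1 probes less closely (r = 0.574).

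The genes whose levels ran most like those of DEPTOR over the 12 arrays, among 9867 genes detected on all arrays, were TRIM9 (r = 0.979), HDHD5-AS1 (0.968), KLHL24 (0.964), CMIP (0.958) and CCNB1IP1 (0.957). For TSC1 they were COMMD7 (0.936), MFAP4 (0.923), TRIM66 (0.922), LYSMD2 (0.921) and FAM120A (0.917). These values describe 12 arrays that share 3 groups and 1 cell line, and carry no test.

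The rest of the pathway was followed through 92 further genes in lists by role, of which 81 could be tested. With the mimic, 17 of the 81 changed at an adjusted p of 0.05, 10 higher and 7 lower (5 higher and 6 lower under median scaling, 5 and 7 with scramble array 3 left out), which is 21% beside 16.2% of all genes (7.44% higher and 8.77% lower). The median log2 difference of the 81 was 0.03. The calls include genes with roles on both sides of mTOR, and 9 of the 17 were called under every alternative setting that tested them and with any 1 array left out. With scramble array 1 or mimic array 4 left out, 11 pathway genes were called. With the anti-miR, 0 of the 81 passed limma's test, and 13 had an unadjusted p under 0.05, beside 16.5% of all genes.

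The largest change was in SGK1, a kinase that mTORC2 phosphorylates. It ran from 7.72 to 8.0 in scramble and from 8.77 to 9.35 with the mimic on the log2 scale, a difference of 1.25 ± 0.13 (SE) with an adjusted p of 0.000477 (limma), or 2.39-fold higher. Both its other probes gave similar log2 differences, 1.28 and 1.27. The arrays measure RNA, so phosphorylation and mTOR activity were not measured. Among the 18 mTOR substrates and outputs tested, EIF4EBP2, a translational repressor that mTORC1 phosphorylates, rose by 0.48 ± 0.09 (SE) with an adjusted p of 0.00497. PDCD4, a translation inhibitor degraded after phosphorylation by the mTORC1 target S6K1, fell by 0.64 ± 0.12 (SE) on the log2 scale with an adjusted p of 0.00478. The second PDCD4 probe gave -0.97. The other 15 genes of this list did not pass. With mimic array 2 left out, 5 of the 18 did. The calls in the main fit are 16.7% of the 18, near the 16.2% called over all genes, so nothing is read from their count.

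Upstream, the amino acid branch held 4 calls among 12 genes for the Rag GTPases, which carry mTORC1 to the lysosome, and their partners. That is 33.3%, beside 16.2% of all genes. RRAGD fell by 0.61 ± 0.08 (SE) on the log2 scale with an adjusted p of 0.00127, and RRAGB fell by 0.47 ± 0.10 (SE) with an adjusted p of 0.00895. The second RRAGB probe gave -0.33 ± 0.13 (SE). FNIP2 and FLCN, which form a complex that acts on the Rag GTPases, rose by 0.55 and 0.42, with adjusted p of 0.0134 and 0.0337 (limma). The second FNIP2 probe gave 0.16, and the other FLCN probes gave 0.06 and 0.35. The FLCN call was lost with mimic array 2 or 4, or scramble array 1, 2 or 3, left out (adjusted p up to 0.0931). It was also lost with an offset of 50, no background correction, median scaling, no filter, the mean of its probes or only the groups compared.

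GATOR1, which holds the Rag GTPases off when amino acids are low, and GATOR2, which opposes it, gave 4 calls among 13 genes with their partners. This share is 30.8%, beside 16.2% of all genes. NPRL3 rose by 0.38 ± 0.09 (SE) and DEPDC5 fell by 0.37 ± 0.11 (SE) on the log2 scale, both GATOR1 subunits, with adjusted p of 0.0122 and 0.0363 (limma). SEH1L rose by 0.27 and WDR59 fell by 0.33, both GATOR2 subunits, with adjusted p of 0.0373 and 0.0193. The other SEH1L probes gave 0.34 and 0.52. The NPRL3 call rests on its brightest probe, since the second gave -0.15 and the mean of its probes 0.12 with an adjusted p of 0.510. Leaving out 1 array took the adjusted p up to 0.107 for DEPDC5 (lost without scramble array 1, 2 or 4, or mimic array 1, 2 or 4), to 0.102 for SEH1L (lost without any 1 of the scramble arrays, mimic array 1, 3 or 4, or anti-miR array 1), and to 0.0618 for WDR59 (lost without scramble array 1 or mimic array 4). Under median scaling 2 of the 13 passed, with SEH1L and WDR59 lost, and also 2 with only the groups compared, with SEH1L and DEPDC5 lost. The DEPDC5 call was lost as well with no background correction or no filter.

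The energy input held 1 call among 8 genes (12.5%), and the growth factor input 2 among 12 (16.7%). Both lie near the 16.2% called over all genes, so nothing is read from these counts. PRKAA1, a catalytic subunit of the energy sensor AMPK that acts on TSC2 and RPTOR, fell by 0.63 ± 0.11 (SE) on the log2 scale with an adjusted p of 0.00387, and its second probe gave -0.53. IRS1, an adaptor of the insulin and IGF receptors, fell by 0.48 ± 0.11 (SE) with an adjusted p of 0.0115. IGF1R, the IGF receptor, was detected on 0 of 4 scramble arrays and on all mimic arrays, so it entered the test only through the mimic and anti-miR arrays and had to be higher there. It was at least 1.17-fold higher with the mimic (adjusted p of 0.00744). It is 1 of the 17 calls and 1 of the 9 kept in every setting that tested it, and no support is drawn from it.

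Of 6 accessory components of the complexes, 3 rose (50%, beside 16.2% of all genes called and 7.44% called as higher) and 3 did not pass. MAPKAP1, the mTORC2 subunit also called SIN1, rose by 0.38 ± 0.11 (SE) with an adjusted p of 0.0332. The other MAPKAP1 probes gave 0.30 and 0.43. PRR5, another mTORC2 subunit, rose by 0.31 ± 0.09 (SE) with an adjusted p of 0.0300. Its other probes gave 0.14 and 0.26, and the PRR5 call was lost with the mean of its probes (0.24, adjusted p of 0.0735). TTI2, part of a chaperone complex for mTOR, rose by 0.34 ± 0.09 (SE) with an adjusted p of 0.0270 (limma). All 3 calls were lost under median scaling, where 0 of these 6 passed, and also with scramble array 1 or 3, or mimic array 1 or 4, left out; with mimic array 3 left out 1 passed. Among genes nearest to the members, TBC1D7, a subunit of the TSC complex, did not pass, nor did any of 3 stress-induced genes listed with DDIT4. Of these, SESN2 had a log2 difference of 0.52 and an adjusted p of 0.249, and with scramble array 1 left out 1 of the 3 passed. Of 8 genes listed for the degradation or deubiquitination of DEPTOR, 0 passed limma's test, beside 16.2% of all genes. At an unadjusted p under 0.05 there were 3, beside 3829 of all 11835 genes. Log2 differences of the 8 ran from -0.36 for SKP1 (adjusted p of 0.0637) to 0.29. Without scramble array 4, mimic array 2 or anti-miR array 2, 1 of these 8 passed, and 2 did with array weights, an offset of 50, no background correction or only probes detected on all arrays.

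**Figure D4:**
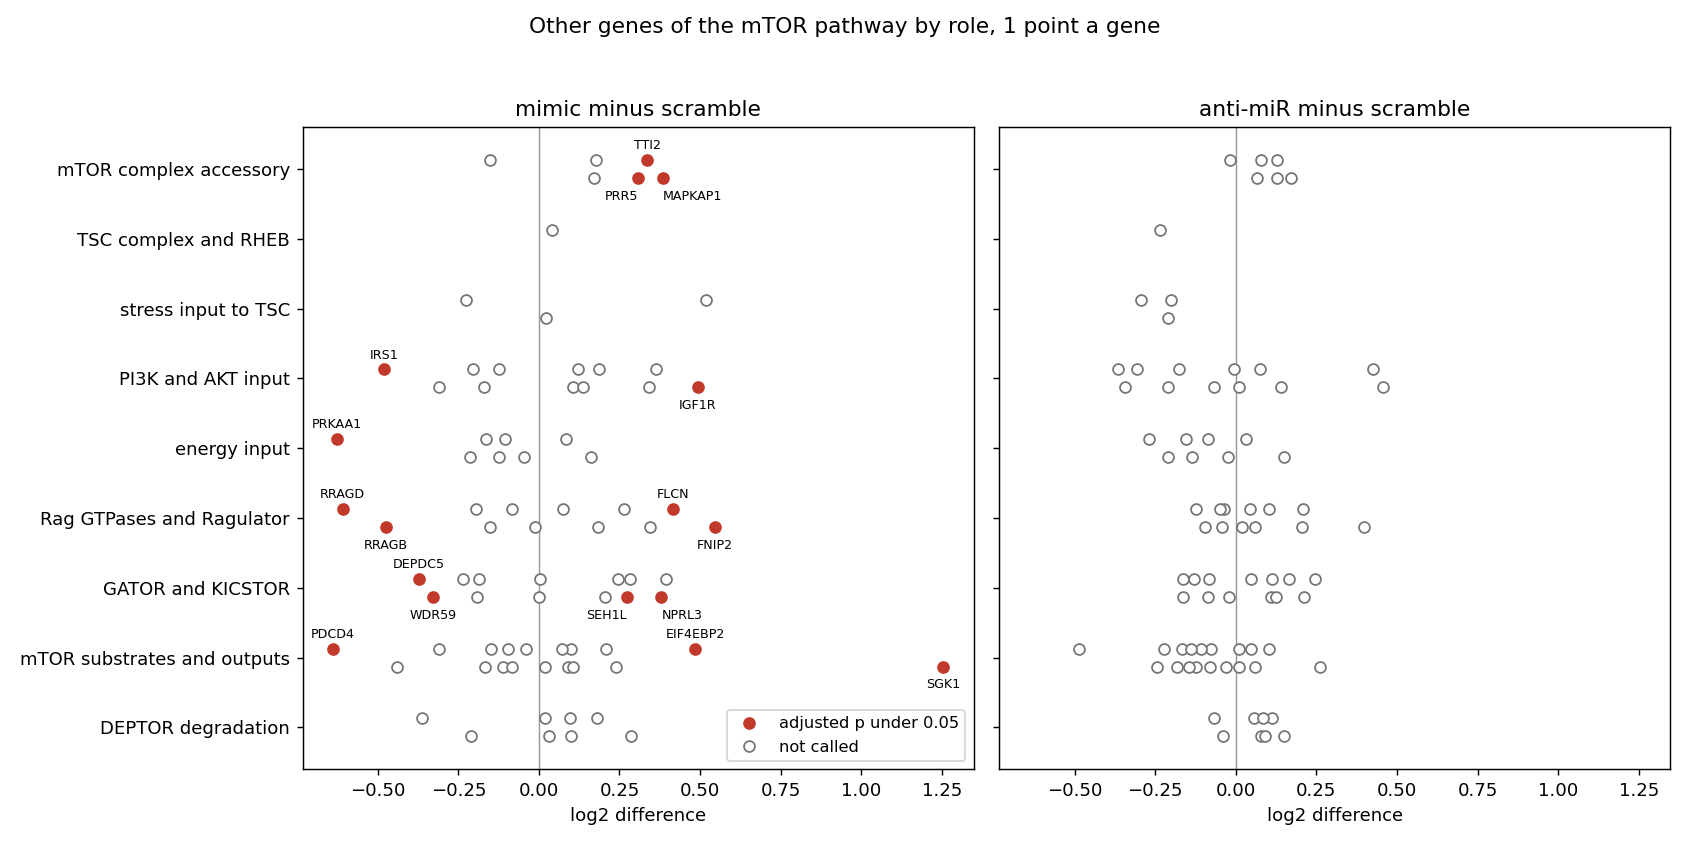
Log2 difference (x axis) of the mimic and of the anti-miR against scramble for each tested pathway gene other than the members. Each point is a gene, in rows by role, with called genes marked. With the mimic, SGK1 lies furthest to the right at 1.25 and PDCD4 furthest to the left at -0.64.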

How the data were processed

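Raw bead intensity and a detection p-value per probe and array were deposited by the authors, per the file headers. A second deposited table holds linear intensities on a common distribution, 159270 of them below 0, and served as an alternative with a floor of 16. Its method, the scanner software and versions are not given in the sources used here. Raw intensities of 12 arrays were background-corrected with limma's nec function (normexp using the detection p-values, offset 16), quantile normalized and taken to log2 (limma 3.58.1, R 4.3.3).

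Of 47322 probes, 20768 had a detection p under 0.05 on at least 4 arrays and 15758 of these carry 1 gene name. The brightest probe stands for each of 11835 genes. One limma model over the 3 groups (lmFit, eBayes) gave differences, with Benjamini-Hochberg adjusted p over all genes and calls under 0.05. The fit was tested on simulated data. P-values measure the spread between these samples, which may be technical.

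Members and lists were chosen with earlier results of these data known. Named are all members, up to 4 called genes per list with the largest difference (groups without overlap first), and the 5 genes most like DEPTOR and TSC1. Alternatives were the offset, background correction, median scaling, the authors' values, the filter, the mean of probes, the replicate number as a block, array weights, only the groups compared, and each array left out.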

Additional observations from a re-analysis of the deposited data

Results flagged for a closer look

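The second DEPTOR probe on mimic array 2 stood at 6.82 on the log2 scale, apart from the other 3 mimic arrays at 5.53 to 5.73. Among 73 groups of 4 arrays tested for such a gap over the members and named genes, it was the only one that passed, which is fewer than the 1 in 20 that chance gives. The brighter DEPTOR probe was also highest on that array, at 6.73. Without it the log2 difference between mimic and scramble was -1.36 for the brighter probe and -1.42 for the second. Leaving out the highest mimic array had to widen the difference, so nothing is read from this. The cause of the gap was not tested.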

How the results depend on the processing

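Of 1698 comparisons of 74 results with an alternative setting or a left-out array, 1582 were rated as kept. For a count this meant a similar size, and for a tested difference the same sign and side of the threshold. For an untested difference it meant a move smaller than its SD within groups, so those near 0 could change sign. MTOR in the mimic comparison, for example, was -0.03 under median scaling. Of the other comparisons, 56 lost a call, 56 moved in size and 4 tested differences changed sign. DEPTOR in the mimic comparison was -0.84 on the log2 scale with no background correction, and -1.36 to -1.12 with 1 array left out. TSC1 was -0.14 with the mean of its probes. The 1919 genes called with the mimic became 1106 to 2073 with 1 array left out, lowest without scramble array 1, mimic array 3 (1196) or mimic array 4 (1169). The 17 pathway calls became 11 under median scaling and 11 to 20 with 1 array left out, with 11 without scramble array 1 or mimic array 4. The 15 genes called with the anti-miR became 30 with an offset of 50, 36 with no background correction, 0 under median scaling, 6 with no filter, 99 with array weights, 0 with only the groups compared, 0 without anti-miR arrays 3 and 4, and 0 to 32 with 1 array left out. The settings that gave 0 calls in limma still had 995 to 1978 genes at an unadjusted p under 0.05. With array weights 1 pathway gene was called with the anti-miR, IGF1R (adjusted p 0.0317), which was detected on 0 of 4 scramble arrays and so had to be higher. The third TSC1 probe in the anti-miR comparison was -0.014 with array weights and -0.042 to 0.14 with 1 array left out, and the second RPTOR probe -0.23 to 0.068. Same-numbered arrays did not deviate together in every pair (correlations from -0.161 to 0.0917 for scramble with mimic, -0.224 to 0.0888 for scramble with anti-miR and 0.0389 to 0.227 for mimic with anti-miR). Mimic arrays 1, 2 and 3 correlated best with the anti-miR array of their own number, and mimic array 4 did not. Of the scramble arrays only array 1 did so, with mimic array 1. The main fit reads no pairing from the numbers, so its mimic against anti-miR differences take no account of one. With the replicate block 1797 genes were called with the mimic, 16 pathway genes and 2 genes with the anti-miR. Among the GATOR genes 2 calls were left with the block, DEPDC5 (adjusted p 0.0631) and SEH1L (0.0652) being lost. A slide block was not run, since the files name no slides. Dim probes (RPTOR, AKT1S1, the third TSC1 probe, and the second DEPTOR probe on mimic arrays 1, 3 and 4) lie near background. This limits their precision, as does the number of arrays.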
